A study of Homo sapiens with 2 samples.

Results

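The RAB GTPases are the largest family of small GTPases that direct membrane traffic, and this report describes where their genes carried peaks in CAL-27 sphere cells, in DNA pulled down by a TCF4 antibody. Members were taken by name, as protein-coding RefSeq genes whose symbol is RAB followed by digits and optional letters, without interactors such as RAB11FIP, RAB3GAP or RAB5IF genes. This gave 64 of 19862 protein-coding genes, on 22 chromosomes. CAL-27 is an established human line of oral cancer, derived from the tongue, and sphere culture is often chosen to favour tumour cells with stem cell traits. The TCF4 antibody group has 1 library, with a deposited list of 26642 peaks on hg38, and the IgG antibody group has 1 library, which was not analysed here. No treatment beyond the antibody is labelled, and both groups come from the same line. No value below has a replicate check, nothing was tested between the antibodies, and peaks that would also appear with IgG were not set aside. The name TCF4 can mean the E protein TCF4, which binds E-boxes, or TCF7L2, the partner of beta-catenin, and the labels do not say which one the antibody binds.

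A RAB protein is a membrane switch. It sits on a given organelle when bound to GTP and there recruits effectors such as motors, tethers and sorting proteins. Exchange factors load it with GTP, GTPase-activating proteins turn it off, and a dissociation inhibitor lifts the prenylated protein off the membrane for reuse. In epithelial cells RAB proteins are known for the sorting of adhesion receptors and growth factor receptors between endosomes and the surface.

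Of the 64 RAB genes, 38 (59.4%, Wilson interval 47.1 to 70.5%) had a peak summit within 1 kb of an end of the gene record, against 41.5% of all protein-coding genes. Such a summit is called an end summit here. High peaks were also frequent. An end peak with a fold of at least 10 was found at 12 RAB genes (18.8%, Wilson interval 11.1 to 30.0%), against 5.43% of all protein-coding genes, and those 12 make up 31.6% of the RAB genes with an end summit, against 13.1% for all genes with one. The fold is the authors' ratio of fragments at the summit to the peak caller's local background, with 1 added to each. It is thus lower than the plain ratio, most of all where the background is low. The limit of 10 was chosen with the values in view. No test set the family against genes of like promoters or activity, so these shares describe this library alone, and the intervals cover counting error only. Summits in the body of a gene, over 1 kb from both ends, were found in 17 RAB genes (26.6%), close to the 25.5% of all protein-coding genes. Any summit, at an end or inside, was found at 70.3% of RAB genes, against 54.9% of all protein-coding genes. The other 19 RAB genes had none.

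The sequence at the highest of these summits is shown first, because the name of the antibody's target points to different short motifs. The stretches below come from the RefSeq promoter table (GRCh38.p14), read 5′ to 3′ on the strand of the gene. The first 9 are all those with a fold of at least 10 that the table holds and that lie over no other protein-coding gene and not over the gene's own record. They hold up to 50 bases on each side of the strongest end summit and stop before the listed gene start. The last 3 are from genes with no end summit, at positions -150 to -50 relative to the start. RAB8B is shown as the close relative of RAB8A, RAB17 because it held the most motifs, and RAB18 because it held none, both chosen after their letters were seen. Capitals mark each E-box (CANNTG, the same on both strands) and each TCF/LEF core (CTTTGA or its complement TCAAAG).
RAB2B, chr14:21477010-21477110, minus strand: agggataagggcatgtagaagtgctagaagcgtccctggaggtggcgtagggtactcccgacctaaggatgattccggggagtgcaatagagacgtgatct
RAB35, chr12:120116804-120116904, minus strand: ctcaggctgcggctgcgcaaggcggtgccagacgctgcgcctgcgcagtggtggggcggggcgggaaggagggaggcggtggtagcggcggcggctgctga
RAB8A, chr19:16111639-16111698, plus strand: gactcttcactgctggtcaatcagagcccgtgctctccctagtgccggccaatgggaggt
RAB5C, chr17:42155081-42155181, minus strand: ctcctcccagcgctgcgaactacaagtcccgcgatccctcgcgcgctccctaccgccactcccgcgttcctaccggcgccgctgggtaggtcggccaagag
RAB11B, chr19:8390183-8390283, plus strand: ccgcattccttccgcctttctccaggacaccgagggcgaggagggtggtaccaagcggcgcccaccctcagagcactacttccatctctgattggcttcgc
RAB5B, chr12:55973836-55973936, plus strand: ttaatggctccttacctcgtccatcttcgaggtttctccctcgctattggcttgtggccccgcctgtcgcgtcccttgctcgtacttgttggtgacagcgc
RAB6A, chr11:73761197-73761297, minus strand: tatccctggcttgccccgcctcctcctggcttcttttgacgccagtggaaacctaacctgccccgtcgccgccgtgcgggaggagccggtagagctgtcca
RAB3A, chr19:18204103-18204203, minus strand: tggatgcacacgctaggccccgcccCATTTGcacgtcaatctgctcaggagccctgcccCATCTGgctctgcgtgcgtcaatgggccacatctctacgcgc
RAB4B, chr19:40778062-40778162, plus strand: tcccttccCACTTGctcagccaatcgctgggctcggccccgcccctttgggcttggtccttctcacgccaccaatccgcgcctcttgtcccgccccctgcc
RAB8B, chr15:63189456-63189556, plus strand: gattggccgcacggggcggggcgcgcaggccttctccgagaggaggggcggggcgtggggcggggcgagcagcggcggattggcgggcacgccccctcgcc
RAB17, chr2:237590784-237590884, minus strand: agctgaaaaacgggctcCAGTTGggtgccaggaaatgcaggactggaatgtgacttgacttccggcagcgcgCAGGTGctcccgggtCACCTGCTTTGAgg
RAB18, chr10:27504154-27504254, plus strand: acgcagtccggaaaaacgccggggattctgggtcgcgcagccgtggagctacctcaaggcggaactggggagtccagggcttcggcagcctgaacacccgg

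Of the 9 high summits, those of RAB2B, RAB35, RAB8A, RAB5C, RAB11B, RAB5B and RAB6A had neither motif in the printed stretch, while RAB3A held 2 E-boxes and RAB4B held 1. RAB17, with no end summit, held 3 E-boxes and 1 TCF/LEF core. Over all 18 summit stretches read from the table, 7 held an E-box and 0 the TCF/LEF core. Over the 20 stretches read for genes without an end summit, 7 held an E-box and 3 the TCF/LEF core (RAB17, RAB27A and RAB40AL). These counts cannot be set against those of the summit stretches. The windows are placed differently, and only 20 of the 26 genes without an end summit have a promoter to read. For 17 RAB summits the table covers all 101 bases around the summit. An E-box was present in 7 of them (41.2%), against 23.9% of 2851 such summits over all protein-coding genes and 29.7% of 15841 promoter stretches of that length before the start. The TCF/LEF core was present in 0 of the 17, against 1.47% and 3.81%. A match of letters does not show binding, and its absence from a window shows nothing about the factor.

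Whole promoters were compared next, from 250 bases before to 50 after the start. The table holds a promoter for 31 of the 38 RAB genes with an end summit and for 20 of the 26 without. The latter (76.9%) is under the 80% needed, so a comparison between RAB genes with and without a summit is void. Of the 31 promoters, 19 held an E-box (61.3%), against 59.4% of promoters of all protein-coding genes with an end summit and 64.6% of all 15841 promoters. The E-box forms CACCTG and CAGCTG, which are counted among the E-boxes too, were in 5 and 7 of the 31 (16.1% and 22.6%), against 18.4% and 16.4% of promoters with an end summit and 19.9% and 17.5% of all. The TCF/LEF core was in 4 (12.9%), against 7.67% of promoters with an end summit and 1741 of all 15841. The GC box (GGGCGG or CCGCCC) was in 28 (90.3%), against 74.8% of promoters with an end summit and 58.3% of all. The CCAAT box was in 9 (29.0%), against 38.9% and 36.4%, in the same order. The ETS motif (CCGGAAG) was in 7 (22.6%), against 19.3% and 14.1%, and the NRF1 motif in 5 (16.1%), against 13.4% and 8.58%. The AP-1 motif (TGANTCA) was in 3 (9.68%), against 4.21% and 5.70%, and the CRE (TGACGTCA) in 0, against 3.35% and 2.56%. Median GC content of the 31 was 68.3%, with quartiles of 62.8 and 73.8%, against 66.3% for promoters of all genes with an end summit. Median CpG content, observed over expected, was 0.842 against 0.852. By these measures the RAB promoters with a summit were GC-rich, with GC and CpG medians near those of other promoters with a summit.

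Genes for RAB proteins of early endosomes all had an end summit, 8 of 8 (Wilson interval 67.6 to 100%), against 41.5% of all protein-coding genes. The role groups were drawn up with earlier results of these data known, so their counts and intervals only describe the groups. The count depends on weak peaks: it was 3 of 8 (RAB4B, RAB5B and RAB5C) at a −log10 q of 10 or more or with 20 or more fragments, and 7 of 8 when RAB31 was lost at a −log10 q of 5 or more. It was also 7 of 8 when each summit was given only to the nearest gene end, which took RAB5A out. RAB5 proteins drive the fusion of early endosomes. RAB5C had the highest peak of the group, at chr17:42154965-42155217, with a fold of 14.3 on 35 fragments at the summit (95% exact Poisson interval 24.4 to 48.7). RAB5B followed at chr12:55973519-55974115, with a fold of 12.7 on 46 fragments (33.7 to 61.4). RAB5A had a fold of 6.10 on 8 fragments (3.45 to 15.8), so the interval of its fragments lies below those of RAB5B and RAB5C. At a fixed background, however, the interval of its fold, 3.02 to 11.4, overlaps those of both relatives. These were 9.37 to 16.9 for RAB5B and 10.05 to 19.7 for RAB5C. The local background differed too, at 0.475 fragments for RAB5A, 2.70 for RAB5B and 1.53 for RAB5C. The value at RAB5A is the floor of the background in the list, shared by 2475 peaks, so it is not a reading particular to that gene. RAB4 proteins return receptors to the surface by the fast route. RAB4B had a fold of 11.3 on 35 fragments (24.4 to 48.7), at chr19:40777939-40778733, with a second end summit of fold 4.38. RAB4A had a fold of 5.96 on 9 fragments. RAB21, which helps carry integrins inward, had a fold of 7.24 on 10 fragments. RAB22A had 5.55 on 15 and RAB31 had 5.13 on 10. Summits inside the gene were present in RAB31 (3), RAB22A (1) and RAB4B (1).

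Genes for recycling and exocytosis held the highest folds together with those of the Golgi route. An end summit was found at 7 of 11 (63.6%), against 41.5% of all protein-coding genes. RAB35, a regulator of recycling and of cell contacts, had a fold of 15.7 on 49 fragments (36.3 to 64.8), at chr12:120116712-120117235. RAB10, which acts in delivery to the basolateral surface, had 15.6 on 44 (32.0 to 59.1), at chr2:26033690-26034328. RAB8A, a regulator of exocytosis and of cilium formation, had 14.8 on 59 fragments (44.9 to 76.1), at chr19:16111357-16111901. Its close relative RAB8B had no summit within 1 kb of an end and none inside, and the nearest lay 31926 bp from an end. RAB11 proteins run the recycling endosome. RAB11B had a fold of 13.1 on 45 fragments (32.8 to 60.2), at chr19:8390040-8390929, and RAB11A had 6.47 on 11 (5.49 to 19.7), so the intervals of their fragments do not overlap. Those of their folds, at a fixed background, do overlap, at 9.63 to 17.4 for RAB11B and 3.50 to 11.2 for RAB11A. The local background was 2.51 fragments for RAB11B and 0.854 for RAB11A. RAB25, the epithelial relative of RAB11, had no summit in the gene, with the nearest 6379 bp from an end. RAB14 had a fold of 10.9 on 27 fragments (17.8 to 39.3), at chr9:121201311-121202058. RAB13, which acts in tight junction assembly, had the weakest strongest end peak of the family, with a fold of 3.85 on 6 fragments and a −log10 q of 1.85. RAB15 and RAB17, an epithelial RAB, had no summit, and no gene of this group had one inside.

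Genes of the endoplasmic reticulum and Golgi route had an end summit in 8 of 17 (47.1%), against 41.5% of all protein-coding genes. RAB2 and RAB1 proteins act between the endoplasmic reticulum and the Golgi. RAB2B had the highest fold of the family, 16.0 on 34 fragments (23.5 to 47.5), at chr14:21476633-21477211. RAB2A had 7.28 on 11 fragments (5.49 to 19.7), with a further summit inside. RAB1A had 15.8 on 36 fragments (25.2 to 49.8), at chr2:65130074-65130442. RAB1B had a lower fold of 8.15 on more fragments, 67 (51.9 to 85.1), over a background of 7.35 fragments against 1.34 at RAB1A. RAB6A, which guides transport back through the Golgi, had 11.6 on 27 fragments (17.8 to 39.3), at chr11:73760891-73761499. Its relatives RAB6B, RAB6C and RAB6D had no end summit, with 1 summit inside RAB6B. RAB30, RAB36 and RAB43 had folds of 8.16, 8.21 and 6.36 on 16, 21 and 17 fragments, and RAB30 had 2 further summits inside. RAB18, which acts at lipid droplets, had none, and the nearest lay 349070 bp away. RAB33A and RAB33B had no end summit but 3 and 1 inside. RAB39A, RAB39B and RAB41 had none.

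Genes for regulated secretion had an end summit in 4 of 8 (50%, Wilson interval 21.5 to 78.5%), against 41.5% of all protein-coding genes. RAB3 proteins control release of vesicles. RAB3A, best known from synapses, had a fold of 11.3 on 37 fragments (26.1 to 51.0), at chr19:18204014-18204456. RAB3B had 6.71 on 14 fragments and RAB3D had 5.58 on 12. RAB26 had 4.22 on 28 fragments over a background of 5.87. RAB3C had no end summit by the rule, with 2 summits inside, the nearer of which lay close to its only listed start. RAB27 proteins tether secretory granules, melanosomes and exosome-forming compartments. RAB27A had 2 summits inside and none at an end, RAB27B had none and its nearest lay 618154 bp away, and RAB37 had none.

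Genes for late endosomes, lysosomes and related organelles had an end summit in 6 of 9 (66.7%), against 41.5% of all protein-coding genes. All 6 had a fold under 10. RAB24, linked to autophagy, had 8.78 on 41 fragments. RAB7A, the RAB of late endosomes and lysosomes, had 7.88 on 15 fragments (8.40 to 24.7) and a second end summit of fold 3.89. RAB32 and RAB38, which act in the making of melanosomes, had 5.54 on 8 fragments and 5.71 on 13. RAB9A, which returns receptors to the Golgi, had 5.63 on 8 fragments, and RAB12 had 4.46 on 7. RAB9A and RAB38 each had 1 further summit inside. RAB7B, RAB9B and RAB29 had no end summit, with 1 inside RAB7B.

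Among genes of cilia and other sites, 3 of 7 had an end summit (42.9%, against 41.5% of all protein-coding genes). They were RAB34, needed for cilium formation in some cells, with a fold of 5.62 on 34 fragments, RAB42 with 5.01 on 8 and RAB20 with 4.72 on 8. RAB23, an inhibitor of Hedgehog signalling, and RAB28 had none, nor did RAB19, and RAB44 had 1 inside. Among the RAB40 genes, whose proteins serve as adaptors of a ubiquitin ligase, RAB40C had a fold of 8.13 on 51 fragments and RAB40B had 6.17 on 20. RAB40A and RAB40AL, both on the X chromosome, had no summit.

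**Figure D1:**
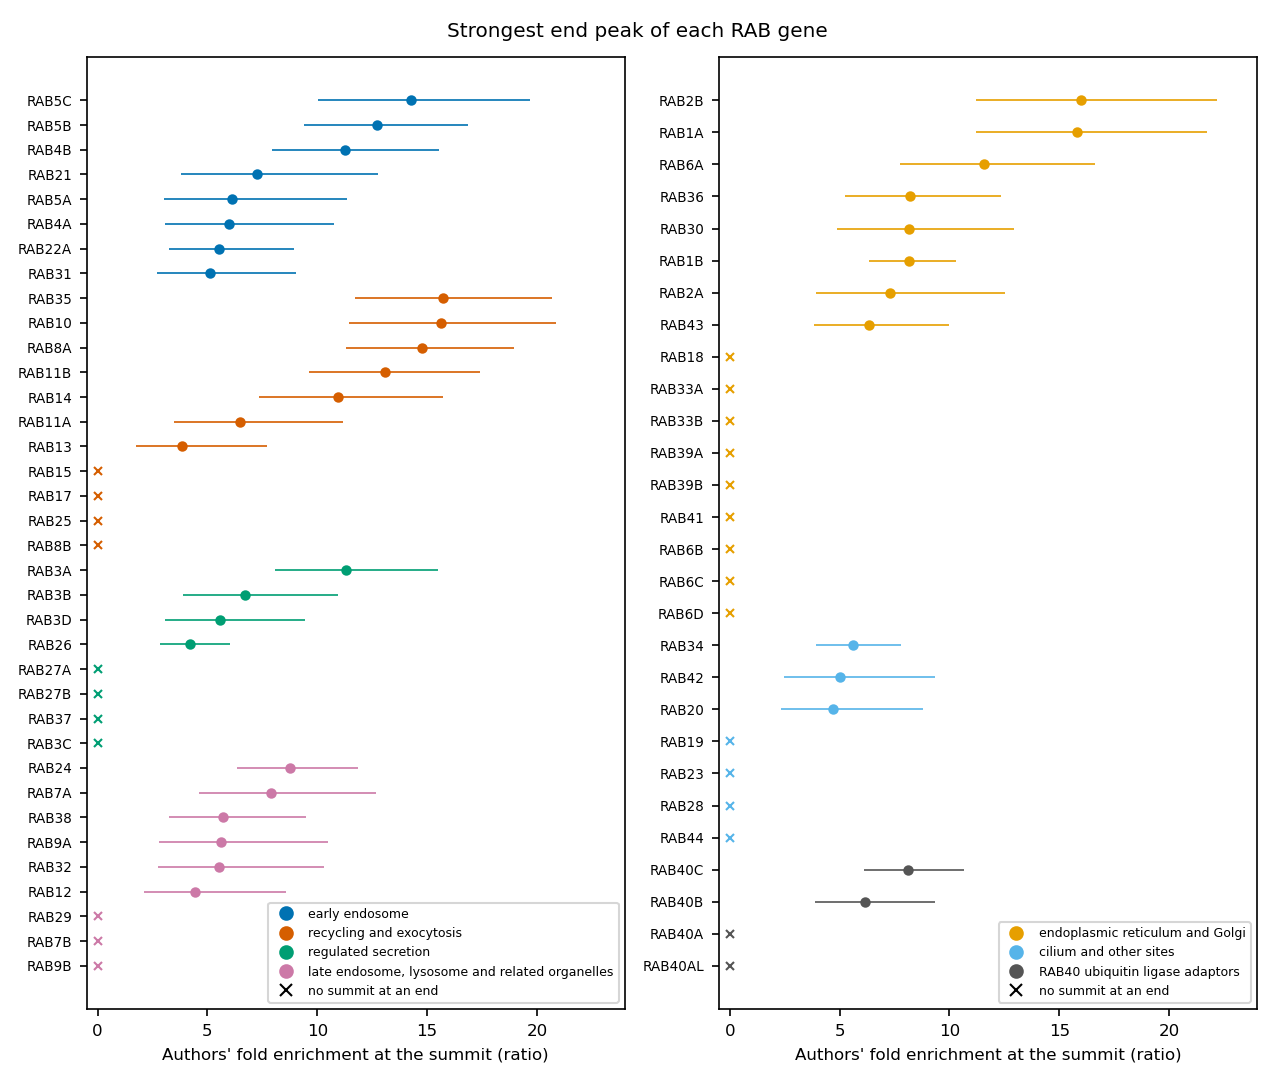
The authors' fold enrichment (x axis, ratio) of the strongest end peak of each of the 64 RAB genes, grouped by role, with bars that carry the 95% exact Poisson interval of the fragments at a fixed background; crosses are the 26 genes with no end summit. All 8 early endosome genes have a peak, and the highest folds belong to RAB2B (16.0), RAB1A (15.8), RAB35 (15.7) and RAB10 (15.6). The role groups were drawn up with earlier results of these data known.

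**Figure D2:**
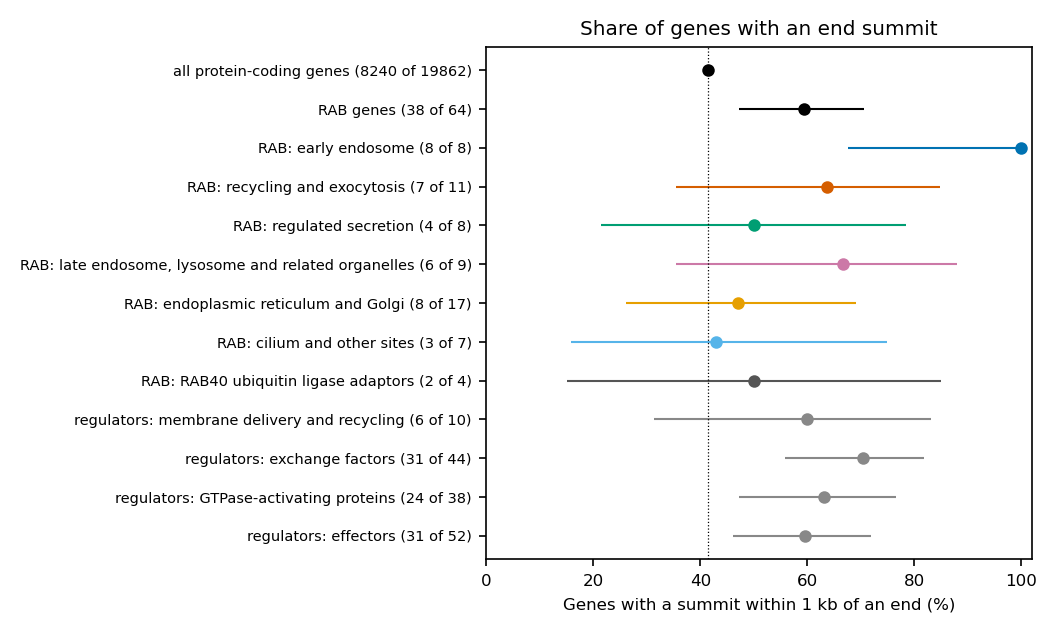
Share of genes with a summit within 1 kb of an end (x axis, percent) for all protein-coding genes, the RAB genes, their role groups and their regulators, with 95% Wilson intervals; the dotted line is the share of all protein-coding genes (41.5%). The RAB genes lie at 59.4% and the early endosome group at 100%, while the intervals of the other role groups span the line. Role groups and regulator lists were drawn up with earlier results of these data known.

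Paralogues that share a number formed 14 families with 35 genes. In 8 of them the members were alike. How many would be so from the 59.4% of all RAB genes with an end summit was not worked out. In 5 every member had an end summit (RAB1, RAB2, RAB4, RAB5 and RAB11), in 3 none had (RAB27, RAB33 and RAB39), and in 6 some had (RAB3, RAB6, RAB7, RAB8, RAB9 and RAB40). Of the 29 genes with no such relative, 18 had one. Reads from near-identical copies can be split or lost in alignment, which was not tested here, so a missing peak in a gene with a close copy is uncertain. Of the 7 RAB genes on the X chromosome only RAB9A had an end summit (14.3%), against 15.3% of all protein-coding genes of that chromosome. Off the X chromosome, 37 of 57 RAB genes had one (64.9%), against 42.7%.

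Peaks at RAB gene ends were compared with those at the ends of all 8240 protein-coding genes that have one, by the strongest peak of each gene. The median fold at RAB genes was 7.26 (quartiles 5.62 and 11.3), against 6.39 (5.03 and 8.45). Their median width was 432 bp against 278 bp, and median fragments at the summit were 18.5 against 13. The local background was 1.44 fragments against 1.06, so it was higher at RAB genes as well, and its part in the other measures was not tested. The lowest, median and highest fragments at RAB summits were 6, 18.5 and 67. At 10 genes the strongest end peak rested on 10 fragments or fewer, and at 19 on at least 20. An end peak of at least 20 fragments was found at 29.7% of all 64 RAB genes, against 11.1% of all protein-coding genes. The lower quartile of fragments was 10.25 at RAB genes, against 9 at all genes with an end summit. A −log10 q under 5 was found at 7 genes: RAB42 (3.56), RAB13 (1.85), RAB32 (4.32), RAB20 (3.14), RAB12 (2.68), RAB31 (4.11) and RAB9A (4.46). The strongest end peak reached a −log10 q of at least 5 at 48.4% of all RAB genes, against 27.3% of all protein-coding genes. The 12 highest folds had from 27 to 59 fragments over backgrounds of 1.19 to 3.07. Higher counts did not always go with higher folds, since RAB1B (67 fragments), RAB40C (51), RAB24 (41), RAB34 (34) and RAB26 (28) lay over backgrounds of 7.35, 5.39, 3.78, 5.23 and 5.87 fragments. These 5 genes and RAB8A no longer had an end summit when the 10% of peaks with the highest background were left out, which left 32 RAB genes with one.

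**Figure D3:**
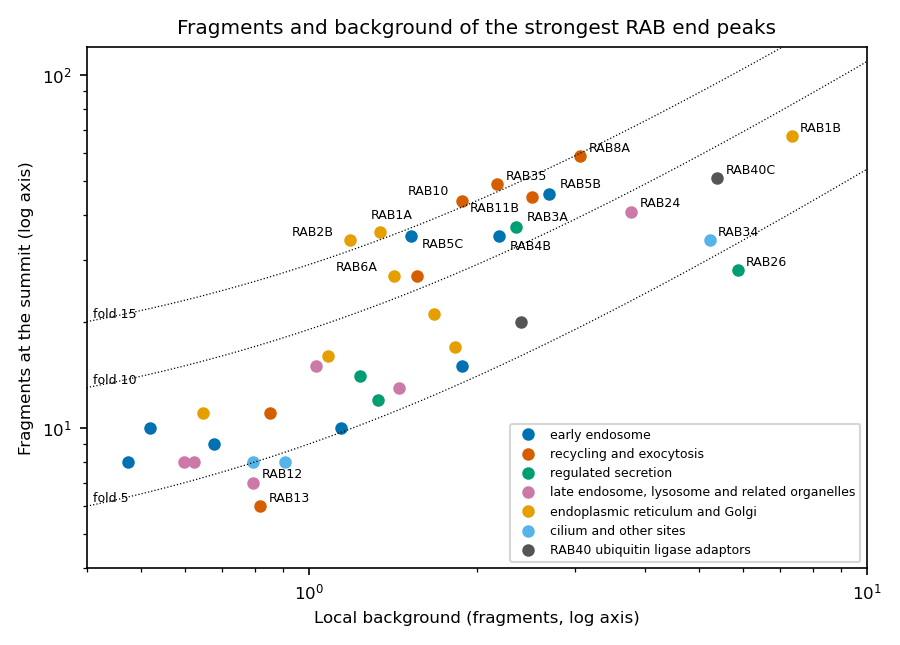
Fragments at the summit (y axis, log scale) against the peak caller's local background in fragments (x axis, log scale) for the strongest end peak of 38 RAB genes, coloured by role, with dotted lines of equal fold. RAB1B has the most fragments (67) but lies under the fold 10 line because its background is 7.35, while RAB2B reaches a fold of 16.0 with 34 fragments over 1.19.

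The summits lay mainly at the starts of the genes. Strand is known from the promoter table for 31 of the 38 genes and not for RAB1A, RAB2A, RAB12, RAB20, RAB26, RAB36 and RAB38. These 31 genes had 35 end summits, of which 34 (97.1%, Wilson interval 85.5 to 99.5%) were nearer the start of the record than the finish, against 90.3% of 8513 over all protein-coding genes. The exception was RAB24, whose summit lay 727 bp from the finish and 1794 bp past the start. Against the nearest listed start of the gene, 29 strongest summits lay within 1 kb and 26 within 250 bp. The 11 genes with strand known and a fold of at least 10 all had the summit before the start, from 63 bp (RAB5B) to 241 bp (RAB8A) before it, with a median of 111 bp. Of the 18 with a lower fold, 9 had it before the start. By the end of the record in place of the nearest listed start, 10 of 11 and 7 of 19 lay before it, against 77.9% and 59.2% of all protein-coding genes with a fold of at least 10 and under 10. RAB10 made the difference in the first group. Its summit lay 723 bp inside the record but 76 bp before the only start listed for it. At RAB13 the summit lay at -4337 bp from the nearest listed start, but 32 bp from the end of the record, and so is not among the 29. At RAB3B and RAB42 the summit lay 541 and 644 bp past the start.

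**Figure D4:**
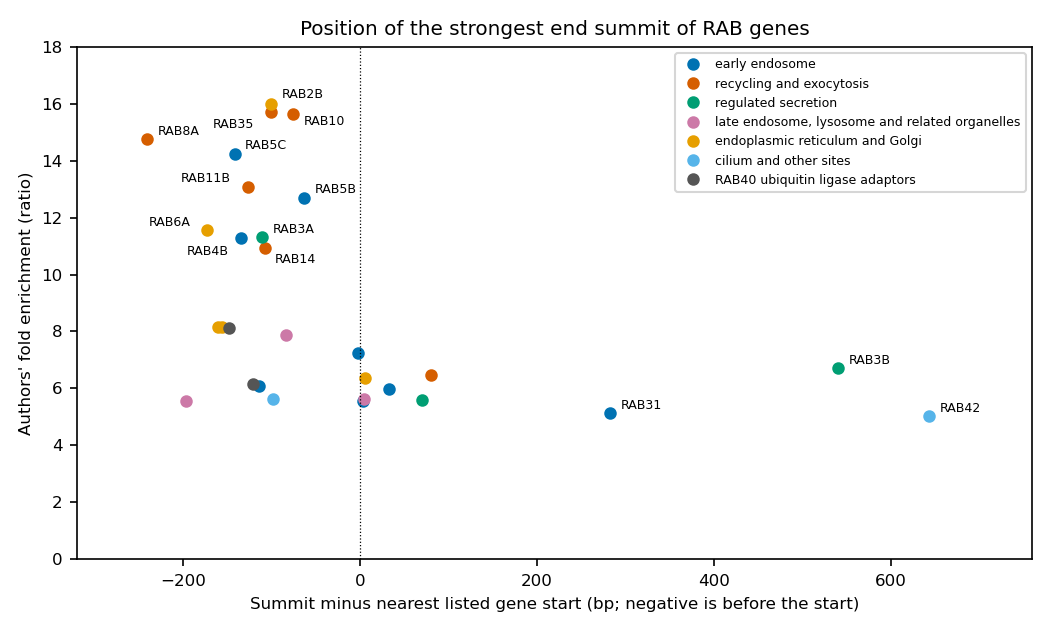
The authors' fold enrichment (y axis, ratio) against the distance of the strongest end summit from the nearest listed gene start (x axis, bp, negative before the start) for 29 RAB genes with a summit within 1 kb of a listed start, coloured by role. The 11 genes with a fold of at least 10 lie between 241 and 63 bp before the start, while genes with lower folds lie on both sides.

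Some of the summits also lay at the end of another gene. The same peak was within 1 kb of an end of another protein-coding gene for 6 of the 38 (15.8%, Wilson interval 7.44 to 30.4%), against 32.3% of all genes with an end summit. These neighbours were TOX4 for RAB2B, MIA for RAB4B, GSN for RAB14, KLC2 for RAB1B, EFHB for RAB5A and RPS27 for RAB13. The RAB5A summit lay 1 bp from the end of EFHB and 115 bp from RAB5A. The RAB13 summit lay 86 bp from RPS27, a ribosomal protein gene, and 32 bp from RAB13. The RAB2B summit lay 135 bp from TOX4 and 101 bp from RAB2B, so each of these peaks cannot be given to 1 gene. Ends of long noncoding RNA records lay within 1 kb of the summit of 12 genes, among them RAB30-DT at 8 bp, RAB4A-AS1 at 10 bp and RAB35-AS1 at 53 bp. The like share over all genes with an end summit is not given here, so this count is not read as a trait of the family. At RAB11A the summit lay 438 bp from a transfer RNA gene.

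Inside RAB genes there were 30 summits in 17 genes, of which 10 also had an end summit. Their median fold was 4.99 on a median of 10 fragments, against 4.79 on 9 for summits inside all protein-coding genes. The set for all genes leaves out summits that also lie at an end of any protein-coding gene, which the RAB set does not. RAB40C and RAB40B held 4 each, RAB31 and RAB33A 3 each. The highest was in RAB40C, at chr16:622293-622559, with a fold of 8.94 on 35 fragments. The next was in RAB31, with a fold of 6.87 on 11 fragments, and then RAB33B, with 6.78 on 9. A summit inside and none at an end was found at 7 RAB genes (10.9%), close to the 13.5% of all protein-coding genes. They were RAB3C, RAB6B, RAB7B, RAB27A, RAB33A, RAB33B and RAB44. Those nearest the limit of 1 kb were RAB3C, 1016 bp from an end, and RAB44, 1037 bp from one. RAB24 at 727 bp and RAB10 at 723 bp were the farthest strongest summits counted. The only start listed for RAB3C lies 923 bp inside its record, on the side of this summit, so the summit lay near that start. By the rule RAB3C is still counted among the genes without an end summit, also where promoters were read.

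The regulators of RAB proteins were counted from 4 lists written from general knowledge, with earlier results of these data known. Of 143 genes, 91 had an end summit (63.6%, Wilson interval 55.5 to 71.1%), and every list lay above the 41.5% of all protein-coding genes as a share. For the delivery list this turned with stricter peaks: 1 of its 10 genes had one at a −log10 q of 10 or more, against 14.2% of all protein-coding genes, and 0 of 10 with at least 20 fragments, against 11.1%. At that −log10 q, exchange factors (15.9%) and effectors (17.3%) lay close to the 14.2%, and GTPase-activating proteins were at 28.9%. With at least 20 fragments, exchange factors were at 15.9%, effectors at 19.2% and GTPase-activating proteins at 18.4%. Exchange factors had 31 of 44, with a median fold of 5.68. They were led by DENND4A (fold 12.4 on 31 fragments), DENND2C (11.97 on 29), RAB3IP (10.5 on 23), which activates RAB8, and TRAPPC9 (9.23 on 21), a subunit of a tethering complex. CCZ1 and CCZ1B, near-identical copies, had none. GTPase-activating proteins had 24 of 38, with a median fold of 6.30, led by TBC1D10B (14.2 on 60), TBC1D22B (9.77 on 15), TBC1D13 (9.69 on 24) and TBC1D25 (9.69 on 19), with none at the ends of EVI5 and GRTP1. Effectors had 31 of 52, with a median fold of 6.02. BICDL1, a dynein adaptor, had 14.9 on 44 fragments, RABEP2, an effector of RAB5, 14.9 on 62, GOLGA2, a Golgi tether, 13.0 on 50 and SYTL3 10.8 on 30, with none at APPL1, and EHBP1 with 3 summits inside but none at an end. For delivery to membranes and recycling, 6 of 10 had one, ICMT (8.02 on 18), GDI2 (7.46 on 11), RABIF (7.18 on 12) and RABGGTA (7.17 on 17) among them. The escort proteins CHM and CHML had none. The median folds of all 4 lists can be set beside the 6.39 of all protein-coding genes with an end summit. Those of exchange factors, GTPase-activating proteins and effectors lay under it, and that of the delivery genes was 7.18.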

How the data were processed

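The TCF4 antibody group has 1 library. Per the submitters' processing notes, which give no settings, Bowtie2 2.3.5.1, SAMtools and MACS2 2.2.7.1 were run on hg38. No source used here says whether the IgG library served as control. The deposited list gives per peak a fold enrichment (a ratio), a −log10 p-value, a −log10 q-value and a score (10 times the −log10 q, decimals dropped), all from the authors' peak caller. The lowest −log10 q was 1.30. The list was used only to describe and filter peaks within it.

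Fragments and background at each summit were solved from the fold and the p, as (fragments + 1) / (background + 1) and a Poisson upper tail, for 26642 of 26642 peaks within 0.0001. On simulated data, 488 of 488 peaks were recovered. The total depth of the library is unknown.

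Genes were 58957 RefSeq records (GRCh38.p14), and records on scaffolds were left out. The table has no exons, so exon, intron and UTR classes were not used here. A summit was counted at an end within 1 kb. Roles, regulators and members were chosen with earlier results of these data known. The 12 RAB genes with the highest fold are given in full, the others by fold and fragments or by name, and each regulator list by the top 4 and up to 2 without a summit. Alternatives were stricter thresholds, other windows, overlaps, gene assignments and members. Tables were joined in pandas 2.3.3 under Python 3.11.15, intervals came from SciPy 1.17.1 with NumPy 2.4.6, and plots from Matplotlib 3.10.9.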

Additional observations from a re-analysis of the deposited data

How the results depend on the processing

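The RAB share with an end summit stayed above that of all protein-coding genes in each of the 10 alternatives run, from 28.1% against 14.2% (a −log10 q of at least 10) to 64.9% against 42.7% (without the X chromosome). With at least 20 fragments it was 29.7% against 11.1%, and without the 10% of peaks with the highest background 32 of 64 genes against 37.6%, where RAB1B, RAB8A, RAB24, RAB26, RAB34 and RAB40C dropped out. With the −log10 q set to 10 or more, 18 RAB genes had an end summit, 1 had one inside, 16 end summits lay nearer the start, the median fold was 11.4 and 27 regulators had an end summit. With at least 20 fragments these values were 19, 2, 16, 11.3 and 23. Among regulators, 53 had one with a −log10 q from 5 upwards. In the 100 bases before the start, 8 RAB promoters held an E-box. These settings keep fewer peaks or bases by construction. The early endosome count went from 8 of 8 to 3 of 8 at a −log10 q from 10 up and with at least 20 fragments, and the delivery list fell to 1 and 0 of 10, below the share of all protein-coding genes. Of 98 values under other settings, 69 stayed within 1.5 times the reported count or inside the interval of the median. Peaks rest on few fragments, which limits any order among genes with similar folds. No paired analysis was possible because each group has 1 library.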

Other observations

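Relatives of the family outside the naming rule were counted too. Of 7 RAB-like genes, IFT27, a subunit of the intraflagellar transport machinery, had a fold of 7.11 on 15 fragments, RABL3 had 6.26 on 9 and RABL6 had 3.88 on 15. RABL2A, RABL2B, IFT22 and RASEF had no end summit, with 2 summits inside RASEF. Of 21 pseudogene records named after RAB genes, 0 had a summit at an end or inside, which allows a share of up to 14.3%. The share over all pseudogene records is not given here.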
